A study of Mus musculus with 8 samples.

Results

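The genes described here are the amino acid carriers of mouse tubuloid cultures, chosen as every gene symbol of the solute carrier families SLC1, SLC3, SLC6, SLC7, SLC36, SLC38 and SLC43. The rule matched 64 of 24063 gene symbols. Of these, 61 are carriers or carrier subunits, and 3 are neighbouring or antisense genes whose names end in "os" (*Slc7a6os*, *Slc6a19os* and *Slc36a1os*). The 61 carriers fall into 7 SLC1, 2 SLC3, 19 SLC6, 15 SLC7, 4 SLC36, 11 SLC38 and 3 SLC43 genes. After the filter on low counts, 45 carriers could be tested.

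Tubuloids are epithelial structures that were grown between layers of Matrigel out of frozen fragments of young mouse kidneys, in medium with HGF, EGF and bFGF. All 8 cultures carried the genotype *Pkd2* fl/fl Pax8rtTA TetOCre mTmG, in which the *Pax8* promoter, active in renal epithelium, drives a doxycycline-dependent Cre. None of the cultures compared here is labelled as having received doxycycline. Per the labels, the kidneys came from mice of postnatal day 7 to 10. The 4 GDNF cultures (numbered 6, 12, 17 and 22) received growth medium with GDNF for 24 h and the 4 control cultures (numbered 3, 7, 14 and 21) the same medium without it, and all were extracted after 7 days of culture. GDNF, the ligand of the Ret receptor, drives outgrowth of the ureteric bud, from which the collecting duct forms. No source used here says which cultures came from the same mouse, so p-values measure the spread between cultures, part of which may be technical.

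Amino acid carriers serve distinct tasks in the kidney. Proximal tubule cells take filtered amino acids back through carriers of the brush border, such as the cystine and dibasic amino acid exchanger formed by *Slc3a1* and *Slc7a9* and the neutral amino acid carrier *Slc6a19*, and release them through basolateral carriers such as *Slc7a7*, *Slc7a8* and *Slc43a2*. Growing cells of nearly any kind feed protein synthesis through another set, which includes the glutamine carriers *Slc1a5* and *Slc38a2* and the exchangers that pair a light chain (*Slc7a5*, *Slc7a6*, *Slc7a11*) with the heavy chain *Slc3a2*. When amino acids run short, the transcription factor ATF4 binds the C/EBP-ATF response element and raises many carriers of the second set, while HNF4A is a transcription factor of proximal tubule cells.

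Upstream sequences of both sets are shown because each regulator has a known DNA element that can be read in them. The sequences are RefSeq promoters of GRCm38.p6, written 5′ to 3′ on the strand of the gene, with the matched element in capitals on either strand. The 250 bases upstream of *Slc7a11*, the cystine and glutamate exchanger, at chr3:50443614-50443863 on the minus strand, held the ATF4 element TGATGNAA in both orientations, 66 and 47 bases before the start. Those of *Slc3a1*, the heavy chain of the brush border exchanger, at chr17:85028097-85028346 on the plus strand, held the HNF4 element CAAAGTCCA 39 bases before the start.
Slc7a11: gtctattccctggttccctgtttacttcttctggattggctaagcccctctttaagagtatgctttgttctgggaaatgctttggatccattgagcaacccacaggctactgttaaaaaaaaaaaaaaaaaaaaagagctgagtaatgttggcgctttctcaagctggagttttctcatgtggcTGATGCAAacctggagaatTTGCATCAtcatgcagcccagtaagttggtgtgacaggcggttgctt
Slc3a1: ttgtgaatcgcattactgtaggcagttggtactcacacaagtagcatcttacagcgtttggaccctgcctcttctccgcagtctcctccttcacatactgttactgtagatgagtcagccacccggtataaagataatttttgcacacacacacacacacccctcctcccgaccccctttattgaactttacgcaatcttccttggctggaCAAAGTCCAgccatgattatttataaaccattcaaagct

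Shorter stretches of 30 bases show the same element at the start sites of *Slc1a4* (chr11:20332699-20332728, minus strand), a carrier of alanine, serine and cysteine, and of *Slc7a7* (chr14:54417927-54417956, minus strand). *Asns* (chr6:7693214-7693243, minus strand), which encodes asparagine synthetase and is a known ATF4 target, is set beside them.
Slc1a4: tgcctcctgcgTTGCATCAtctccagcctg
Slc7a7: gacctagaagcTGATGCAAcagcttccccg
Asns: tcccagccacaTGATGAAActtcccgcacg

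Promoters were listed for 43 of the 61 carriers, and 3 of these 43 (*Slc1a4*, *Slc7a11* and *Slc7a7*) held the ATF4 element, against 3.97% of all 32851 promoters and 4.51% of all genes. *Slc7a7* has 5 listed promoters, and genes with several promoters have more chances of a match. Of 28 genes of a list of ATF4 pathway genes, 9 held it. The HNF4 element was in 0.475% of all promoters and, among the carriers, in that of *Slc3a1* alone. A match is a description of letters and not of binding. *Slc7a11*, *Slc1a4* and *Slc3a1* are taken up again with their values below.

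The deposited counts, one per RefSeq transcript, summed to between 72991721 and 97490625 per culture. Control culture 3 had the lowest scaling factor of the trimmed mean of M-values (TMM), 0.790. Summed TPM, the length-normalized abundance of a transcript, of 8 epithelial markers ranged from 357 to 3179 in controls and from 903 to 1299 in GDNF cultures, and those of 11 stromal markers from 398 to 2862 and from 438 to 1986. Control culture 14 was lowest in epithelial and highest in stromal markers and control culture 21 was highest in epithelial markers. In such bulk samples, fewer cells of a type and less RNA per cell cannot be told apart. GDNF cultures 6 and 12 and control cultures 3 and 7 contained *Xist* RNA, and the others Y-linked RNA.

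Of the 61 carriers, 27 reached a mean of 1 TPM in the control cultures and 29 in the GDNF cultures. TPM, scaled by the authors per transcript length, is used here wherever levels of different genes are compared, and is that of the transcript with the most counts. *Slc3a2* had the highest mean level over all 8 cultures, 89.3 ± 18.7 TPM (SD), followed by *Slc38a2* with 83.6 ± 23 TPM, *Slc1a5* with 59.5 ± 22.3 TPM and *Slc38a10* with 26.7 ± 7.91 TPM. *Slc6a6* with 24.9 ± 7.5 TPM, *Slc7a5* with 22.4 ± 8.25 TPM, *Slc7a7* with 19.97 ± 6.57 TPM and *Slc7a6* with 17.4 ± 3.82 TPM came next. *Slc38a2* lay above *Slc1a5*, and *Slc1a5* above *Slc38a10*, in 8 of 8 cultures. The order depends on that choice of transcript. Summed over all transcripts, where shared reads may appear in each, TPM was 170.3 for *Slc3a2*, 166.2 for *Slc38a10*, 83.6 for *Slc38a2*, 62.6 for *Slc7a7* and 59.5 for *Slc1a5*. The order of *Slc3a2* and *Slc38a2*, of *Slc38a10* and *Slc6a6*, and of *Slc6a6* and *Slc7a5* changed from culture to culture, the first of each pair being higher in 5, 5 and 4 of the 8 cultures.

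**Figure D1:**
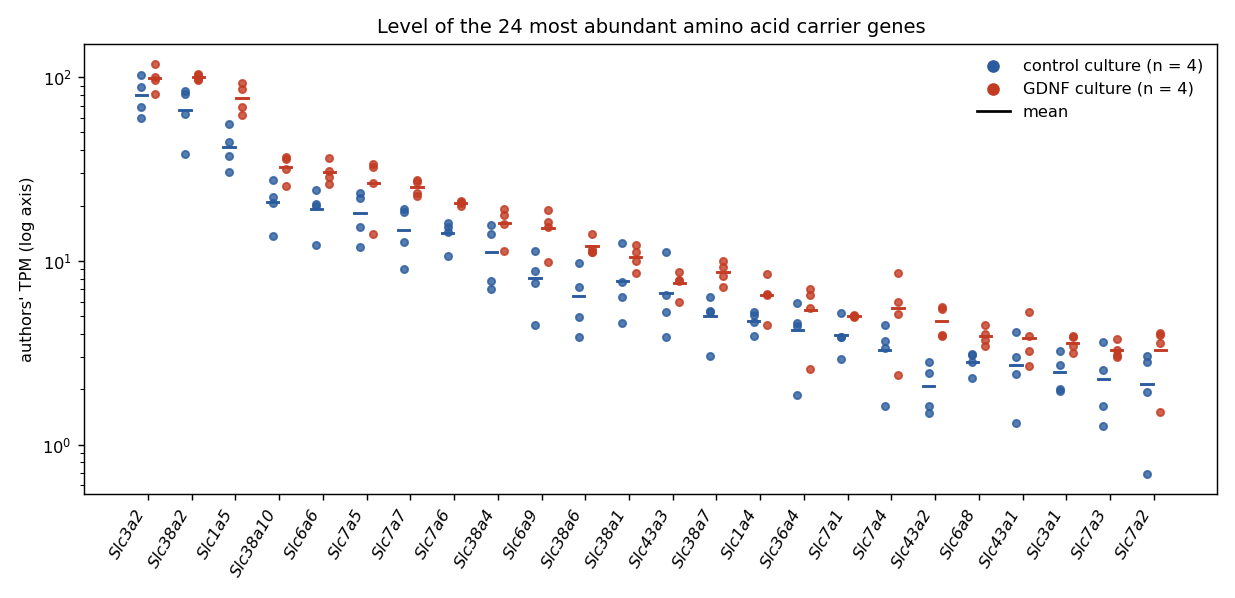
TPM of the transcript with the most counts for the 24 most abundant carriers (log axis), one point per culture, control in blue and GDNF in red, with the mean of 4 cultures as a bar. *Slc3a2*, *Slc38a2* and *Slc1a5* stood above all other carriers in the mean level of that transcript, and the authors' TPM of genes in general was higher in the GDNF cultures by a median of 0.40 on the log2 scale.

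By the transcript with the most counts, the genes listed as growth carriers made up most of the carrier RNA. *Slc3a2*, a heavy chain shared by several light chains, was counted wholly among them, so the shares depend on how the lists were drawn. The 12 growth carriers held 69.6% of the summed carrier TPM in the controls and 68.1% in the GDNF cultures. The 14 carriers of filtrate uptake, at either face of the proximal tubule cell, held 6.45% and 7.54%. These shares, like the order of the genes, depend on the choice of transcript. Summed over all transcripts, TPM was 170.3 for *Slc3a2* of the growth list, 62.6 for *Slc7a7* of the filtrate list and 166.2 for *Slc38a10*, which is in neither list. At least 1 TPM in the controls was found for 11 of the 12 growth carriers, all except *Slc7a11* at 0.653 ± 0.227 TPM, but for 4 of the 14 filtrate carriers, *Slc7a7* at 14.8 ± 4.83, *Slc3a1* at 2.47 ± 0.609, *Slc43a2* at 2.09 ± 0.641 and *Slc7a8* at 1.44 ± 0.773 TPM. The brush border carriers were low in both groups. *Slc6a19*, the carrier altered in Hartnup disorder, was at 0.434 ± 0.284 TPM in controls and 0.533 ± 0.357 TPM in GDNF cultures. *Slc7a9*, the light chain partner of *Slc3a1*, was at 0.334 ± 0.0346 and 0.375 ± 0.244 TPM, so the level counted for the heavy chain exceeded that of its partner in both groups. Of the exons of *Slc3a1*, however, 601 bases are shared with *Prepl* on the opposite strand. Reads of the 2 genes in these bases cannot be told apart, and their part in the level of *Slc3a1* was not tested.

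Other proximal tubule genes were at similarly low levels. Of 18 markers of this segment, 4 reached 1 TPM in the controls and 6 in the GDNF cultures. The 4 were *Ass1* at 11.5, *Gatm* at 8.09, *Ggt1* at 6.60 and *Slc5a2* at 6.52 TPM. *Lrp2*, which encodes the endocytic receptor megalin, had a mean of 0.0369 TPM in controls and 0.0774 TPM in GDNF cultures, and *Slc34a1*, the sodium phosphate carrier of this segment, 0.0126 and 0.0017 TPM. *Hnf4a* had a mean of 0.111 TPM in controls and 0.457 TPM in GDNF cultures. By contrast *Atf4* had 138 and 140 TPM.

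The effect of the GDNF pulse on each carrier was tested with edgeR on counts summed per gene. No gene of the 16557 tested passed an adjusted p of 0.05 (0.0% of all genes), and so none of the 45 carriers did. The smallest adjusted p, for carriers as for all genes, was 0.167. At an unadjusted p of 0.05, 9 of the 45 carriers were higher in the GDNF cultures, against 9.25% of all genes tested, and 0 were lower, against 12.9% of all genes. The log2 fold change was positive for 34 of the 45 and negative for 11, with a median of 0.28, against 0.03 for all genes. *Slc6a13*, *Slc6a20b* and *Slc6a19* passed the filter on low counts through the GDNF cultures alone, and of the other 42 carriers 7 were higher. The count of 9 was 4 without control culture 3, 4 without control culture 21, 5 without GDNF culture 17 and 5 without GDNF culture 22. Shares over all genes are not given for these fits, so whether the count fell for carriers in particular was not tested. With DESeq2, 1 carrier (*Slc43a2*) passed an adjusted p of 0.05, against 9.02% of the 11724 genes that DESeq2 adjusted.

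Because longer transcripts had higher fold changes across all genes, the counts of the carriers and of the lists below are also given with per-culture trends on transcript length removed. The median log2 fold change of all genes climbed from -0.31 in the group with the shortest transcripts to 0.30 in the group with the longest, of 4 groups of equal size, and the shortest group took 30.01 to 42.3% of the counts in control cultures and 26.1 to 30.6% in GDNF cultures. The carriers tested had a median transcript length of 3432 bases, against 2674 for all genes tested. With the trends removed, 5 carriers were higher at an unadjusted p of 0.05, against 7.31% of all genes, and 0 were lower, against 9.09%. These were *Slc6a13*, *Slc38a6*, *Slc1a1*, *Slc6a20b* and *Slc1a5*, of which *Slc6a13* and *Slc6a20b* passed the filter through the GDNF cultures alone. The median over the carriers was then 0.09, with 26 positive and 19 negative. What part transcript length has in the difference between the groups was not tested.

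**Figure D2:**
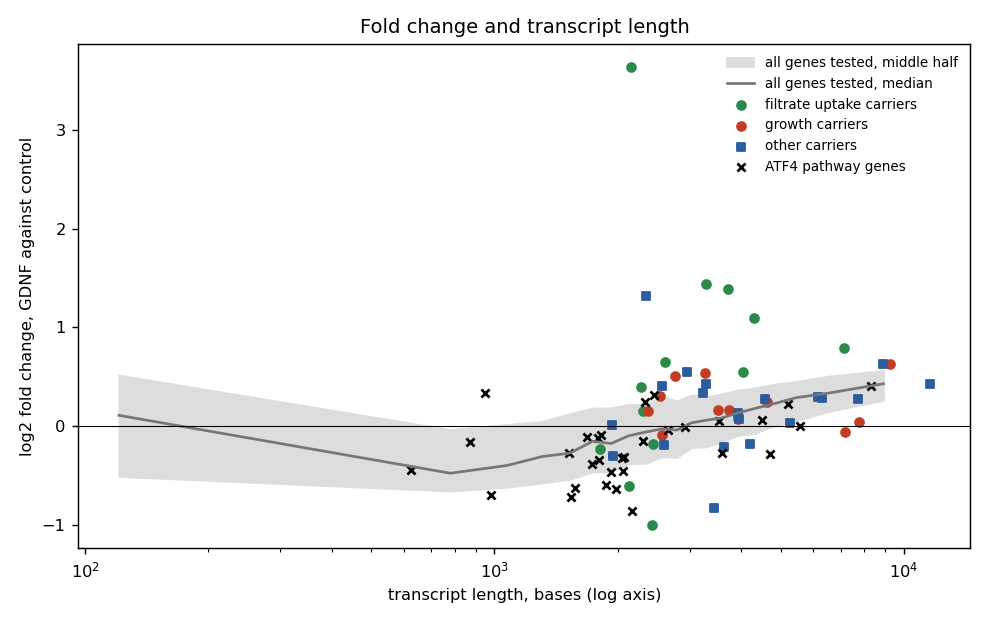
Log2 fold change (GDNF against control) against transcript length in bases (log axis), with the carriers and the ATF4 pathway genes as points and, for all genes tested, the median as a line and the range between the quartiles as a band. The line lies below 0 for short and above 0 for long transcripts, from a median of -0.31 in the shortest to 0.30 in the longest of 4 equal groups of genes.

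Of the 13 filtrate carriers tested, 4 were higher at an unadjusted p of 0.05 (9.25% of all genes) and 0 were lower (12.9%), with a median log2 fold change of 0.54. Without those that passed the filter through the GDNF cultures alone, 2 were higher. With length trends removed 3 of the 13 were higher (7.31% of all genes) and 0 lower (9.09%), and the median was 0.44. Of these 3, *Slc6a13* and *Slc6a20b* passed the filter through the GDNF cultures alone, and the other was *Slc1a1*. Summed over the list, TPM ranged from 14.95 to 28.2 in the controls and from 36.8 to 43.5 in the GDNF cultures, without overlap, but the median shift of the authors' TPM between the groups, 0.40 on the log2 scale over 13698 genes, applies to these sums as well. The 4 carriers are described next, in CPM, the count scaled by library size and TMM, a level that is compared here between cultures only.

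*Slc43a2* (LAT4; chr11:75529915-75577575), a basolateral carrier of branched-chain amino acids, phenylalanine and methionine, had the smallest p of the carriers. Its level was 26.7, 31.9, 21.5 and 33.9 CPM in control cultures 3, 7, 14 and 21, and 61.3, 41.1, 40.7 and 53.7 CPM in GDNF cultures 6, 12, 17 and 22. Every GDNF culture lay above every control culture, with means of 28.5 ± 5.57 and 49.2 ± 10.1 CPM (SD, n = 4 each). The log2 fold change was 0.79 (SE 0.20, edgeR adjusted p = 0.167, DESeq2 adjusted p = 0.0318). It was 0.80 among the cultures with *Xist* RNA and 0.77 among those with Y-linked RNA. The transcript is long, 7147 bases, and with length trends removed the value was 0.45 (unadjusted p = 0.0806). GENCODE places an antisense RNA (*Gm45606*) over 922 bases of its exons, and the library kit does not mark strand.

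*Slc6a13* (GAT2; chr6:121300288-121337721), a carrier of taurine and GABA that proximal tubule cells use, had the largest log2 fold change. It rested on few counts, 11, 2, 0 and 3 in control cultures 3, 7, 14 and 21 and 158, 24, 24 and 30 in GDNF cultures 6, 12, 17 and 22. The groups did not overlap, but culture 6 stood far above the others. *Slc6a13* passed the filter on low counts through the GDNF cultures alone, where it is high. The means were 0.0522 ± 0.0683 and 0.640 ± 0.712 CPM, and the fitted log2 fold change was 3.64 (SE 1.1, edgeR adjusted p = 0.167), a value that depends on how counts near 0 are handled. Without culture 6 it was 2.47, and without control culture 3 it was 5.01. On the length-normalized scale the gene reached 0.575 ± 0.608 TPM in GDNF cultures, so it stayed a minor carrier.

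*Slc1a1* (EAAC1; chr19:28835135-28913960), the brush border carrier of glutamate and aspartate, split the GDNF cultures. Controls 3, 7, 14 and 21 were at 0.582, 1.04, 0.801 and 0.714 CPM. GDNF cultures 6 and 17 were at 3.30 and 3.00 CPM, and cultures 12 and 22, at 1.12 and 0.817 CPM, were close to the controls. The log2 fold change was 1.39 (SE 0.49, edgeR adjusted p = 0.172). Of the exons of this gene, 2631 bases are shared with *4430402I18Rik* on the opposite strand, which was at 2.43 CPM in controls and 2.95 CPM in GDNF cultures, and their reads cannot be told apart.

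*Slc6a20b*, one of a pair of mouse genes related to the proline carrier SIT1, was at 0.111, 0.0522, 0.203 and 0.190 CPM in the controls and 0.280, 0.349, 0.575 and 0.310 CPM in GDNF cultures 6, 12, 17 and 22. The groups did not overlap and the log2 fold change was 1.44 (SE 0.57, edgeR adjusted p = 0.192). This gene too passed the filter through the GDNF cultures alone. Its exons share 1800 bases with *Sacm1l* on the opposite strand, a gene at 73.5 and 59.8 CPM in the 2 groups, and reads of the 2 genes in the shared bases cannot be told apart. How the authors counted reads that map to both *Slc6a20b* and its close copy *Slc6a20a*, which had at most 7 counts in a culture, is not given in the sources used here.

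The other 9 filtrate carriers tested did not reach an unadjusted p of 0.05. *Slc7a7*, the basolateral exchanger of lysinuric protein intolerance and by far the most abundant of the list, was at 65.7 ± 16.4 CPM in controls and 86.1 ± 5.73 CPM in GDNF cultures, with a log2 fold change of 0.39 (SE 0.18). *Slc7a8*, *Slc38a3* and *Slc6a18* had log2 fold changes of 0.54 (SE 0.38), 0.65 (SE 0.60) and 1.09 (SE 0.75). In *Slc6a18*, culture 6 stood apart, at 18.3 CPM against 1.78 to 4.14 CPM in the other GDNF cultures and 1.0 to 6.86 CPM in the controls. *Slc38a3*, a basolateral glutamine carrier, had opposite signs in the *Xist*-containing cultures (1.64) and the Y-containing cultures (-1.11), with 2 cultures of each kind in each group. Here too culture 6 was highest, with 7.21, 2.73, 1.17 and 0.867 CPM in GDNF cultures 6, 12, 17 and 22 and 1.28 to 2.27 CPM in the controls. *Slc3a1* and *Slc7a9*, whose products form one exchanger, had values of 0.15 (SE 0.22) and -0.23 (SE 0.56). *Slc3a1*, with the HNF4 element shown above, ranged from 2.88 to 4.30 CPM in controls and from 3.66 to 4.53 CPM in GDNF cultures. *Prepl*, which shares 601 bases of its exons on the opposite strand, was at 103 CPM in controls and 93.5 CPM in GDNF cultures. *Slc36a2*, *Slc6a19* and *Slc7a13* had negative log2 fold changes with standard errors of 0.92, 0.82 and 1.31.

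**Figure D3:**
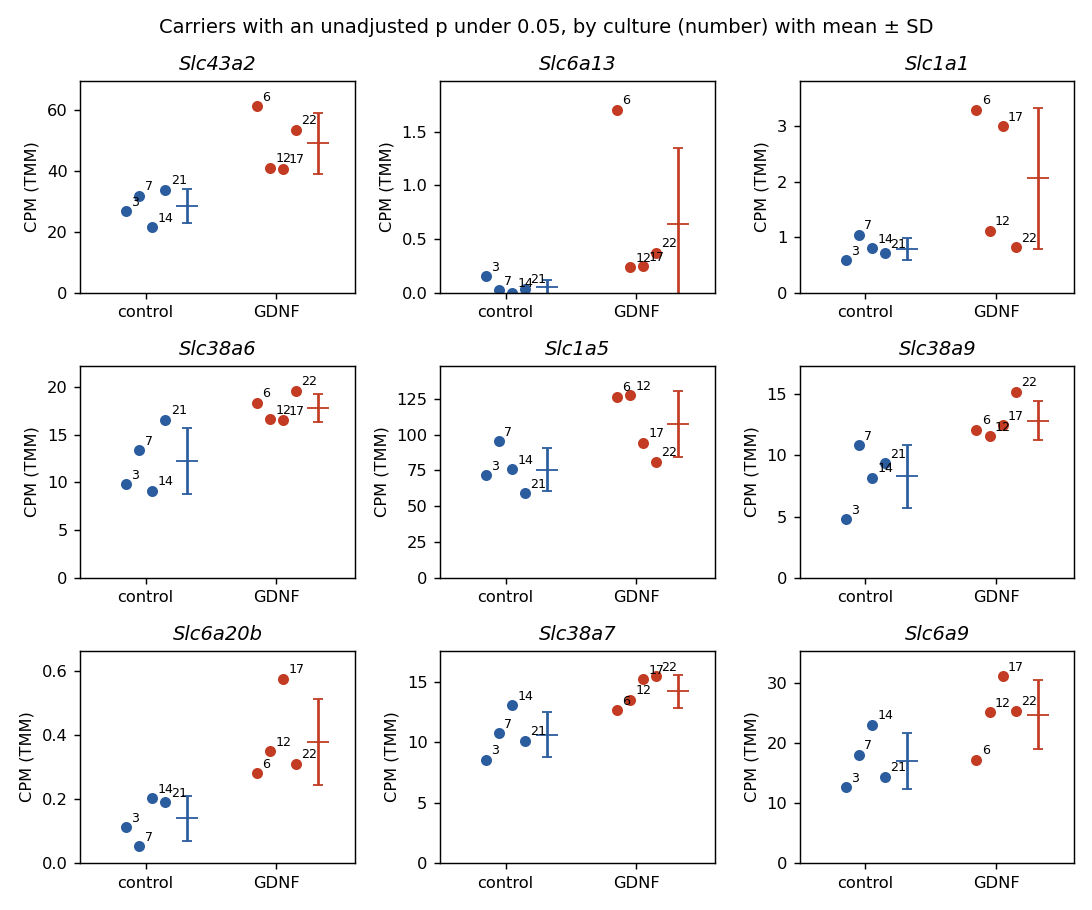
Level in CPM (TMM) of the 9 carriers with an unadjusted p under 0.05, one numbered point per culture, with mean and SD of 4 cultures beside the points; the lower SD bars of *Slc6a13* end at the axis. In *Slc43a2*, *Slc6a13*, *Slc38a9* and *Slc6a20b* every GDNF culture lies above every control culture, and in the other 5 the groups overlap.

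Among the 12 growth carriers, all tested, 2 were higher at an unadjusted p of 0.05 (9.25% of all genes) and 0 were lower (12.9%), with a median log2 fold change of 0.16. With length trends removed 1, *Slc1a5*, was higher (7.31%) and 0 were lower (9.09%), and the median was 0.08. *Slc1a5* (ASCT2; chr7:16781334-16798274), the main glutamine carrier of dividing cells, was at 71.8, 95.6, 75.8 and 59.2 CPM in the controls and at 127, 128, 94.4 and 81.2 CPM in GDNF cultures 6, 12, 17 and 22. Cultures 6 and 12 lay above all controls, and cultures 17 and 22 within the control range. The log2 fold change was 0.51 (SE 0.20, edgeR adjusted p = 0.192) and 0.50 with length trends removed.

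*Slc6a9* (GlyT1), a glycine carrier, was at 12.6, 18.0, 23 and 14.4 CPM in the controls and 17.2, 25.1, 31.1 and 25.3 CPM in GDNF cultures 6, 12, 17 and 22. Culture 6 lay within the control range and the other 3 above it. The log2 fold change was 0.54 (SE 0.24, edgeR adjusted p = 0.220). On the opposite strand, *Ccdc24* shares 1429 bases of its exons and had a log2 fold change of 0.52.

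None of the light chains of the *Slc3a2* exchangers reached an unadjusted p of 0.05. *Slc7a6* (y+LAT2), which exchanges dibasic for neutral amino acids, was at 34.2, 33.5, 35.5 and 34.9 CPM in controls and 41.6, 37.3, 39.3 and 36.3 CPM in GDNF cultures 6, 12, 17 and 22. The groups did not overlap, but the log2 fold change was 0.16 (SE 0.12, edgeR adjusted p = 0.425). Its neighbour *Slc7a6os*, no carrier, also did not overlap, at 23, 32, 33.4 and 28.3 CPM in controls and 38.2, 36.4, 33.4 and 34.7 CPM in GDNF cultures, with the closest values equal to 3 digits (log2 fold change 0.29, SE 0.15). *Slc7a5* (LAT1), the carrier of leucine and other large neutral amino acids, was at 35.7, 48.4, 51.3 and 30.9 CPM in controls and 26.3, 59.0, 56.9 and 44.2 CPM in GDNF cultures. The lowest of all its values was that of GDNF culture 6, and the log2 fold change was 0.17 (SE 0.26, edgeR adjusted p = 0.739). *Slc7a11*, with 2 ATF4 elements upstream, ranged from 3.10 to 4.8 CPM in controls and from 3.73 to 8.81 CPM in GDNF cultures (log2 fold change 0.63, SE 0.30, edgeR adjusted p = 0.250), and its 9227-base transcript gave 0.17 with length trends removed.

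*Slc3a2* (CD98 heavy chain), the shared partner of these light chains, was at 265, 220, 328 and 263 CPM in controls and 222, 246, 255 and 284 CPM in GDNF cultures 6, 12, 17 and 22. The log2 fold change was -0.09 (SE 0.16, edgeR adjusted p = 0.750), and its sign turned with library size scaling alone and without control culture 14. *Slc38a2* (SNAT2), a sodium-coupled carrier of glutamine and alanine, was at 151, 233, 182 and 226 CPM in controls and 259, 228, 224 and 226 CPM in GDNF cultures, with a log2 fold change of 0.24 (SE 0.16, edgeR adjusted p = 0.400). Its controls 3 and 14 were lowest. *Slc1a4*, with its ATF4 element at the start site, ranged from 11.3 to 13.1 CPM in controls and from 9.39 to 16.7 CPM in GDNF cultures, with a log2 fold change of 0.07 (SE 0.20). *Slc38a1*, a relative of *Slc38a2*, had a log2 fold change of 0.04 and, with length trends removed, of -0.37. It was lowest in control culture 14, at 63.0 CPM, and highest in control culture 21, at 162 CPM, the cultures with the least and the most epithelial marker RNA; the part of cell composition was not tested. The cationic amino acid carriers *Slc7a1* and *Slc7a3* and the neutral carrier *Slc43a1* had log2 fold changes of -0.06 (SE 0.20), 0.16 (SE 0.30) and 0.31 (SE 0.31).

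**Figure D4:**
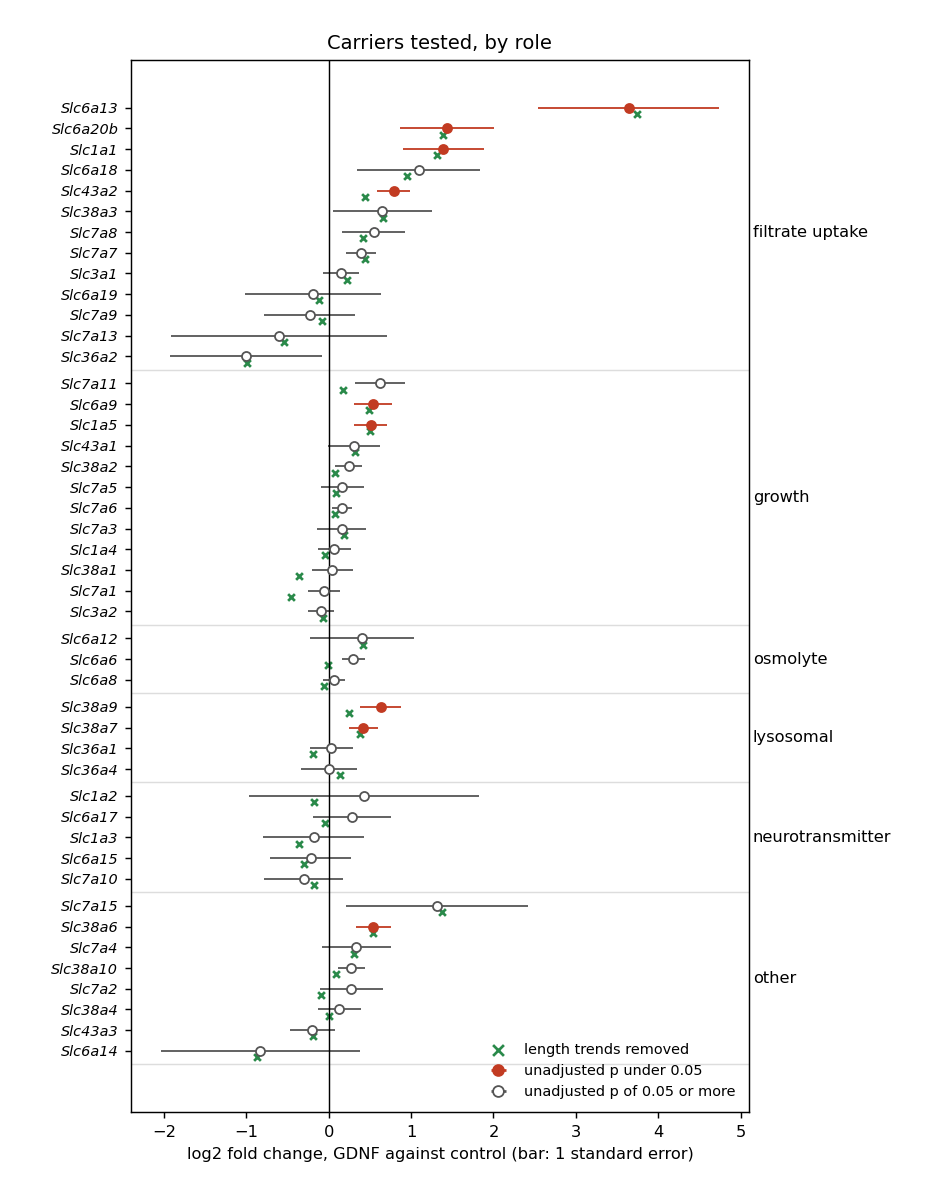
Log2 fold change (GDNF against control, edgeR) of the 45 carriers tested, grouped by role, with a bar of 1 standard error and a cross for the value with length trends removed. Filled points mark the 9 carriers with an unadjusted p under 0.05, all above 0 (9.25% of all genes were higher and 12.9% lower). They are 4 of 13 tested for filtrate uptake, 2 of 12 for growth, 2 of 4 for the lysosome and 1 of 8 in no role list. Of the 4 for filtrate uptake, *Slc6a13* and *Slc6a20b* passed the filter on low counts through the GDNF cultures alone.

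Carriers of the lysosome, which release amino acids from degraded protein, had 2 of 4 tested members higher at an unadjusted p of 0.05 (9.25% of all genes) and 0 lower (12.9%), and 0 in either direction with length trends removed (7.31% higher and 9.09% lower of all genes). *Slc38a9*, a lysosomal arginine sensor upstream of mTORC1, was at 4.79, 10.8, 8.19 and 9.34 CPM in controls and 12.1, 11.6, 12.5 and 15.2 CPM in GDNF cultures 6, 12, 17 and 22. The groups did not overlap, with a log2 fold change of 0.63 (SE 0.25, edgeR adjusted p = 0.192). Its transcript of 8913 bases is among the longest here, and without the length trends the value was 0.25. *Slc38a7*, the lysosomal glutamine exporter, was at 8.57, 10.8, 13.1 and 10.1 CPM in controls and 12.7, 13.5, 15.3 and 15.5 CPM in GDNF cultures (log2 fold change 0.42, SE 0.18, edgeR adjusted p = 0.210). One GDNF culture, number 6, lay below the highest control. The proton-coupled carriers *Slc36a1* and *Slc36a4* had log2 fold changes of 0.03 (SE 0.26) and 0.01 (SE 0.34).

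The remaining carriers included osmolyte carriers, neurotransmitter carriers and carriers without a fixed role here. *Slc6a6* (TauT), which loads cells with the osmolyte taurine, was at 64.3, 76.3, 78.6 and 87.2 CPM in controls and 86.8, 87.8, 95.8 and 106 CPM in GDNF cultures 6, 12, 17 and 22. Only control culture 21 reached into the GDNF range (log2 fold change 0.30, SE 0.14, edgeR adjusted p = 0.242), and with length trends removed the value was -0.01. *Slc6a8*, the creatine carrier, and *Slc6a12*, the betaine carrier, had log2 fold changes of 0.07 (SE 0.13) and 0.41 (SE 0.63). *Slc38a6*, a member of the SLC38 family with less well defined substrates, was at 9.79, 13.4, 9.13 and 16.6 CPM in controls and 18.4, 16.7, 16.6 and 19.6 CPM in GDNF cultures, with a log2 fold change of 0.54 (SE 0.21, edgeR adjusted p = 0.189) and the same value with length trends removed. Its controls spread widely and control culture 21 lay above the lowest GDNF culture. *Slc38a10*, with 6 listed transcripts that may share reads, was at 256, 286, 374 and 288 CPM in controls and 307, 410, 402 and 340 CPM in GDNF cultures (log2 fold change 0.28, SE 0.17, edgeR adjusted p = 0.342). Its values overlapped, and its level of 21 ± 5.73 TPM in controls is the one to compare with other genes. The other 6 tested carriers without a fixed role, *Slc7a15*, *Slc7a4*, *Slc7a2*, *Slc38a4*, *Slc43a3* and *Slc6a14*, had log2 fold changes between -0.83 (SE 1.21, *Slc6a14*) and 1.31 (SE 1.11, *Slc7a15*), none at an unadjusted p of 0.05.

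Of 14 neurotransmitter carriers, 5 could be tested and none reached an unadjusted p of 0.05, with or without length trends removed, with a median log2 fold change of -0.18. The 5 were *Slc1a2*, *Slc1a3*, *Slc6a15*, *Slc6a17* and *Slc7a10*, with values from -0.30 (SE 0.48, *Slc7a10*) to 0.43 (SE 1.39, *Slc1a2*). *Slc1a3*, the glial glutamate carrier, was the only one at 1 TPM. It was highest in control culture 14, at 7.90 CPM against 1.36 to 3.09 CPM in the other controls, as was *Slc43a3*, at 18.1 CPM against 7.95 to 10.6 CPM. This is the control culture with the most stromal marker RNA, whose part was not tested.

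In all, 16 carriers were too low to test. They included *Slc36a3*, *Slc38a8* and *Slc6a11*, with 0 counts in all cultures, and *Slc6a20a*, *Slc7a14*, *Slc7a12*, *Slc1a6*, *Slc1a7*, *Slc6a2*, *Slc6a3*, *Slc6a4*, *Slc6a5*, *Slc6a7*, *Slc38a5* and *Slc38a11*. *Slc6a7* and *Slc7a14* had at most 3 counts in every culture, and the highest count was 83, of the serotonin carrier *Slc6a4* in control culture 21. *Slc38a5*, a glutamine carrier also known as SNAT5, had 1, 8, 26 and 6 counts in control cultures 3, 7, 14 and 21 and 0 counts in all 4 GDNF cultures. This was the one carrier that was lower at an unadjusted p of 0.05 in DESeq2 or in edgeR without the filter on low counts. Most of its counts came from control culture 14. Shares over all genes at an unadjusted p of 0.05 are not given for these fits. Of the genes that are no carriers, *Slc6a19os* had 0 counts and *Slc36a1os* 5 counts, in control culture 14 alone.

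Without overlap between the groups, 5 carriers were higher in the GDNF cultures (*Slc43a2*, *Slc6a13*, *Slc38a9*, *Slc6a20b* and *Slc7a6*), against 6.99% of all genes tested, and 0 were lower, against 6.26%. Without those that passed the filter through the GDNF cultures alone, 3 were higher. Of the 9 carriers with an unadjusted p under 0.05, chosen over the same cultures, 2 were at an unadjusted p of 0.05 among the *Xist*-containing cultures and 3 among the Y-containing cultures, with 2 cultures of each kind in each group. Shares over all genes are not given for these smaller fits.

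Genes that act with the carriers were examined from lists. Of 31 genes of the ATF4 pathway, 6 were lower at an unadjusted p of 0.05 (12.9% of all genes) and 0 were higher (9.25%), with a median log2 fold change of -0.27. With length trends removed 3 were lower (9.09%) and 0 higher (7.31%), and the median was -0.12. The list had a median transcript length of 2051 bases, shorter than that of the carriers. *Eif4ebp1*, a translational repressor, had a log2 fold change of -0.70 (SE 0.22, edgeR adjusted p = 0.167). *Psat1* and *Psph*, enzymes of serine synthesis, had -0.87 (SE 0.27) and -0.72 (SE 0.26). *Atf4* itself was at 317 ± 60.2 CPM in controls and 242 ± 10.3 CPM in GDNF cultures, a log2 fold change of -0.39 (SE 0.16), and *Asns* was at 81.3 ± 23.5 and 59.0 ± 4.43 CPM, with -0.46 (SE 0.19). With length trends removed the values of *Atf4* and *Asns* were -0.18 and -0.30. The carriers with the ATF4 element, *Slc7a11*, *Slc7a7* and *Slc1a4*, had log2 fold changes of 0.17, 0.44 and -0.05 with length trends removed, and none of these genes passed the adjusted p in edgeR.

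Of 20 cytosolic aminoacyl-tRNA synthetase genes, which charge tRNA with the amino acids taken up, 0 were higher (9.25% of all genes) and 2 were lower (12.9%) at an unadjusted p of 0.05. With length trends removed 1 was higher (7.31%) and 2 lower (9.09%). The 2 lower without that removal were *Dars* (log2 fold change -0.76, SE 0.21) and *Rars* (-0.42, SE 0.17), and the next smallest p was that of *Gars* (-0.38, SE 0.18). Among 26 tested genes of amino acid sensing by mTORC1, 7 were higher (9.25% of all genes) and 9 lower (12.9%), and with length trends removed 3 higher (7.31%) and 3 lower (9.09%). The smallest p-values were those of *Rraga* (-0.88, SE 0.21), a Rag GTPase, *Rheb* (-0.53, SE 0.14), the GTPase that activates mTORC1, and *Mlst8* (0.40, SE 0.13), a subunit of the complex. *Slc38a9* and *Rraga*, whose products meet at the lysosome, had log2 fold changes of opposite sign, 0.63 and -0.88, without that removal. With length trends removed the value of *Slc38a9* was 0.25, and that of *Rraga* is not given here.

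Of 10 tested genes whose products traffic or anchor carriers, 0 were higher (9.25% of all genes) and 2 were lower (12.9%), *Arl6ip5* (-0.55, SE 0.15), a regulator of *Slc1a1*, and *Bsg* (-0.77, SE 0.26), while *Pdzk1* (0.43, SE 0.29), a brush border scaffold, had the next smallest p. With length trends removed 0 were higher (7.31%) and 2 lower (9.09%). Of 15 tested amino acid carriers of other families, 2 were higher (9.25% of all genes) and 0 lower (12.9%) at an unadjusted p of 0.05, and with length trends removed 3 higher (7.31%) and 0 lower (9.09%). *Slc25a22*, a mitochondrial glutamate carrier, had a log2 fold change of 0.42 (SE 0.13), *Ctns*, the lysosomal cystine exporter, 0.45 (SE 0.20), and *Slc25a38*, a mitochondrial glycine carrier, 0.30 (SE 0.14). Among 12 tested proximal tubule markers, 1 was higher (9.25% of all genes) and 0 lower (12.9%), and with length trends removed 2 higher (7.31%) and 1 lower (9.09%). The 1 without that removal was *Slc22a8*, an organic anion carrier, at 1.09 ± 0.514 CPM in controls and 3.70 ± 2.74 CPM in GDNF cultures (log2 fold change 1.77, SE 0.64, edgeR adjusted p = 0.177).

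**Figure D5:**
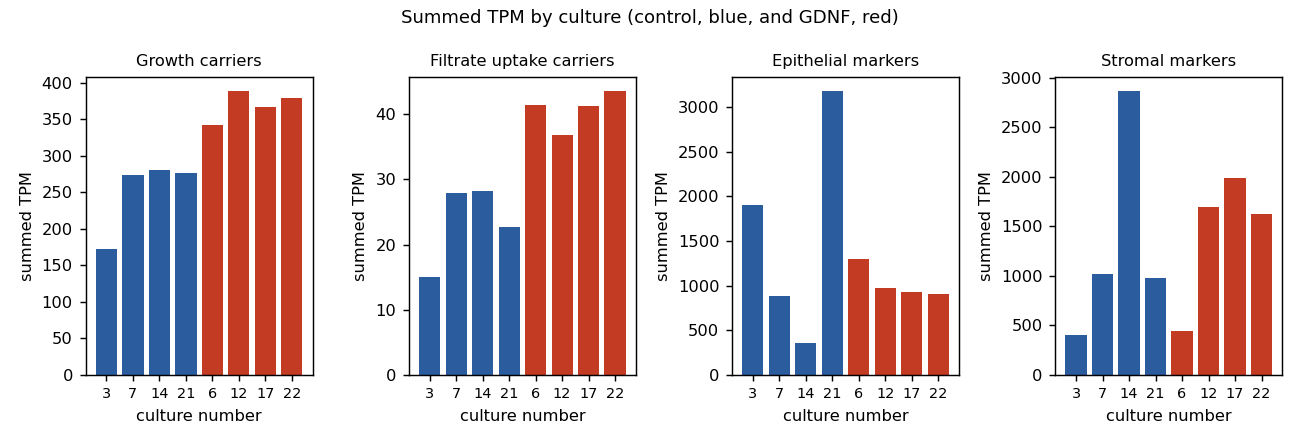
Summed TPM of the growth carriers, the filtrate uptake carriers, 8 epithelial markers and 11 stromal markers in each of the 8 cultures (numbers on the x axis), control in blue and GDNF in red, each panel with its own y axis from 0. Both carrier sums are higher in every GDNF culture than in every control, with control culture 3 lowest, while the marker sums overlap and vary most among the controls. All sums carry the median shift of the authors' TPM between the groups, 0.40 on the log2 scale over 13698 genes. In edgeR the median log2 fold change of the growth carriers was 0.16.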

How the data were processed

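RNA-Seq was available for 4 GDNF-pulsed and 4 control tubuloid cultures. Libraries used SMART-Seq v4 chemistry after poly-A selection, and paired reads of 75 bp came from 2 lanes of 4 samples, where the lane of each culture is not given in the sources used here. The GDNF dose was 20 ng/ml and extraction followed 6 days after the pulse. The authors mapped reads to mm10 with STAR, and the submitters' processing notes also name featureCounts, DESeq2 and GRCm38, without versions. How strand and reads shared between transcripts were counted is not given in the sources used here.

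The authors deposited whole-number counts per RefSeq transcript. The deposited FPKM values are per transcript length and per total count, and were used only for lengths. The authors scaled TPM to 1 common total in each culture. Reads that fit several transcripts may appear in each, which the sources used here do not state.

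Here, counts were added up for each symbol, filtered with filterByExpr, scaled by TMM and tested by quasi-likelihood (glmQLFit, glmQLFTest) in edgeR 4.0.16 under R 4.3.3, and p-values of 16557 genes were adjusted by Benjamini-Hochberg with a threshold of 0.05. The standard error equals the size of the log2 fold change over the root of F. Groups share no culture numbers, so the fit has no block. Alternatives were DESeq2 1.42.0, limma-voom 3.58.1, other scalings and filters, 1 transcript per gene, a covariate for *Xist* or Y-linked RNA, and each culture left out. Spline trends (5 degrees of freedom) on transcript length, and on length and GC content, removed through offsets, and counts without carriers that passed the filter through the GDNF cultures alone were added after seeing the data. On data simulated with the dispersions that edgeR itself had fitted, edgeR missed most changes of 2-fold and found most of 4-fold. The share of false calls was well above the threshold with DESeq2 at either size of change. With edgeR and limma-voom it was above the threshold at 4-fold only.

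Values in every culture are given for carriers with an unadjusted p under 0.05 or no overlap between groups and for the 6 with the highest TPM, and the 3 genes of smallest p are named for each pathway list. The members and lists were chosen with earlier results of these data known. *Slc38a5*, *Slc7a11*, *Slc1a4* and other carriers outside this rule were named after their values were seen. Coordinates are RefSeq gene spans on GRCm38, found for 61 carriers. Totals of 72991721 to 97490625 counts per culture leave counting error small for all but genes with few counts. One carrier is not reported here on its own.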

Additional observations from a re-analysis of the deposited data

Results flagged for a closer look

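In 4 of the 90 groups of 4 cultures examined (each tested carrier in each group), 1 culture lay farther from the others than Dixon's 95% critical value, applied to the gap over the group's range, allows, where chance gives about 1 group in 20. Of these 4, 3 were GDNF culture 6 as the highest. *Slc38a2* was at 258.6 CPM there, against 224.0 to 227.5 CPM in the other GDNF cultures. *Slc6a13* was at 1.70 CPM, against 0.239 to 0.372 CPM. *Slc6a18* was at 18.3 CPM, against 1.78 to 4.14 CPM. The remaining value was that of the creatine carrier *Slc6a8*, which was lowest in control culture 21, at 19.4 CPM against 22.8 to 23.4 CPM in the other controls.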

How the results depend on the processing

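The count of carriers at an adjusted p of 0.05 was 0 with limma-voom, with other scalings and filters, with 1 transcript per gene, with each culture left out, with the covariate for *Xist* or Y-linked RNA, with trends removed and at an adjusted p of 0.1, and was 1 (*Slc43a2*, log2 fold change 0.77, adjusted p = 0.0318) with DESeq2. The 9 higher carriers became 14 with library size scaling alone. Under that scaling the median of all genes was 0.25 on the log2 scale and that of the carriers 0.46. The 9 became 5 with length trends removed (7.31% of all genes) and 4 with length and GC trends removed (1140 of 16557 genes). When a culture was left out, they became 4 to 10. Shares over all genes are not given for library size scaling or for the fits without a culture. The 0 lower of 45 carriers became 1 of 57 with DESeq2 and 1 of 57 without the filter on low counts. Shares over all genes at an unadjusted p of 0.05 are not given for DESeq2 or for the fit without the filter. The median log2 fold change lay between 0.09 and 0.46 over all alternatives. Of the 45 tested carriers, 8 turned from a positive to a negative sign with length trends removed and 10 with length and GC trends removed, and 0 turned the other way. The share of all genes whose sign turned is not given. Of all 16557 genes tested, 8691 had a positive sign, against 8381 with length trends removed and 8309 with length and GC trends removed. The carriers tested had longer transcripts, with a median of 3432 bases against 2674 for all genes tested. Among the 15 carriers with values in every culture, the sign turned for *Slc3a2* with library size scaling alone (0.13) and, over the values without 1 culture, which ranged from -0.179 to 0.0152, without control culture 14, for *Slc38a10* (-0.0435), *Slc7a5* (-0.0182) and *Slc6a6* (-0.0414) with length and GC trends removed, and for *Slc6a6* (-0.0077) with length trends removed. The cause of these changes was not tested. No paired analysis was possible because the groups share no culture numbers. With 4 cultures per group, carriers with few counts, such as *Slc6a13* and *Slc6a20b*, carry large standard errors.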
